A study of Mus musculus with 32 samples.

Results

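Microglia and complement genes were followed in the frontal cortex (FCtx) of ethanol-treated and control mice, on 1 Illumina MouseRef-8 v2.0 array per mouse. The set comprised 10 gene symbols, C1qa, C1qb, C1qc, Csf1r, Cx3cr1, Aif1, Tyrobp, Trem2, Cfp and Ctss, and was taken by symbol from the 18138 gene symbols of the array. All 10 were present, with 13 of the 25697 probes, and 11 of these probes, at least 1 for each gene, were detected on at least 24 of the 32 arrays and were tested among 10187 probes of 7926 genes. The mice were female F1 hybrids labelled C57BL/6J x FVB/NJ F1, which the methods describe as coming from crosses in both directions. The 20 ethanol-treated mice could drink 20% ethanol or water from separate bottles in limited sessions during the dark phase over 20 days, and the 12 matched controls carry no ethanol label. The intake of single mice is not used here, and their age is not given in the sources used here. The FCtx was the dorsal piece of a rostral coronal slice without olfactory bulbs, so each array holds the RNA of all cell types of that piece.

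Chips 1 and 2 carried 8 ethanol-treated mice each, chip 4 carried 8 controls, and chip 3 carried 4 mice of each group, with ethanol at the odd positions (A, C, E, G) and control at the even ones (B, D, F, H). On chip 3, treatment and position therefore cannot be told apart, and on the other chips treatment and chip cannot be told apart. Between 10644 and 11544 probes per array were detected in ethanol-treated mice and between 9480 and 11413 in controls, where the array of control C66 on chip 4 was lowest (10637 to 11413 without it). Values are on the log2 scale after variance stabilization and quantile normalization, and the number of arrays limits their precision.

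Microglia are the resident macrophages of the brain. They depend on the CSF1 receptor for survival, sense neurons through the fractalkine receptor CX3CR1, and bind lipids and lipoproteins through TREM2, which signals through the adaptor TYROBP. They are also the main source of C1q in the brain, the recognition molecule of the classical complement pathway, which tags synapses and debris for removal. Properdin, encoded by Cfp, belongs to the alternative pathway, where it stabilizes the C3 convertase, and outside the brain it is made by neutrophils, monocytes and T cells.

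The values rest on probes of 50 bases. The probes for the 3 chains of C1q are printed because the chains are homologous proteins and their genes, C1qb, C1qc and C1qa, are direct neighbours on chromosome 4 in RefSeq (GRCm38.p6), so that shared sequence could mix their signals. The Aif1 probe and the first 30 bases of the Cfp probe, the gene with the largest differences between arrays, are printed as well. Capitals mark the longest run that a C1q probe shares with the probe of another chain, and the sequences without capitals are shown with no such mark.

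C1qa: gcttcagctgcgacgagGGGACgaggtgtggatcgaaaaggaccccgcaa
C1qb: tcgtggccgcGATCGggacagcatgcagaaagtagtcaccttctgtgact
C1qc: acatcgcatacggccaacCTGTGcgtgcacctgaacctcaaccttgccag
Aif1: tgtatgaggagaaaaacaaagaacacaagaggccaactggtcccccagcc
Cfp: gaagaaaccctaaaatcccttgcttccatt

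The deposited annotation places these probes on the minus strand at chr4:136452139-136452188 (C1qa), chr4:136436367-136436416 (C1qb), chr4:136446132-136446181 (C1qc), chr17:35309577-35309626 (Aif1) and chrX:20502682-20502731 (Cfp). It names no genome build, and of 8 member probes with 1 range none fell inside the gene of that name in GRCm38.p6, so these coordinates belong to another build. No C1q probe shared a run of more than 5 bases with another, and between probes of any 2 different members the longest shared run was 8 of 50 bases. The probes were not searched against the transcripts of the other chains, so these runs cannot show whether the signals mix.

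Compared across all 32 arrays, few of the microglia and complement genes passed the test. The median size of their differences was 0.07, beside 0.06 over all genes. By limma, 0 of 10 genes passed an FDR of 1%, where 7.95% of all genes tested did, and 1 of 10, C1qb, passed an FDR of 10%, where 24.7% did. At an unadjusted p below 0.05, 2 of 10 passed. The share of all genes at that p was not counted, here or for the related lists. The differences ran from -0.12 (C1qb) to 0.09 (Cfp), with 7 genes lower and 3 higher in ethanol-treated mice. Their median was -0.06, beside -0.01 over all genes, of which 46.8% were higher. Of the 841 probes called at an FDR of 1%, 44.1% were higher in ethanol-treated mice, and with median scaling 82.3% of 147.

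**Figure D1:**
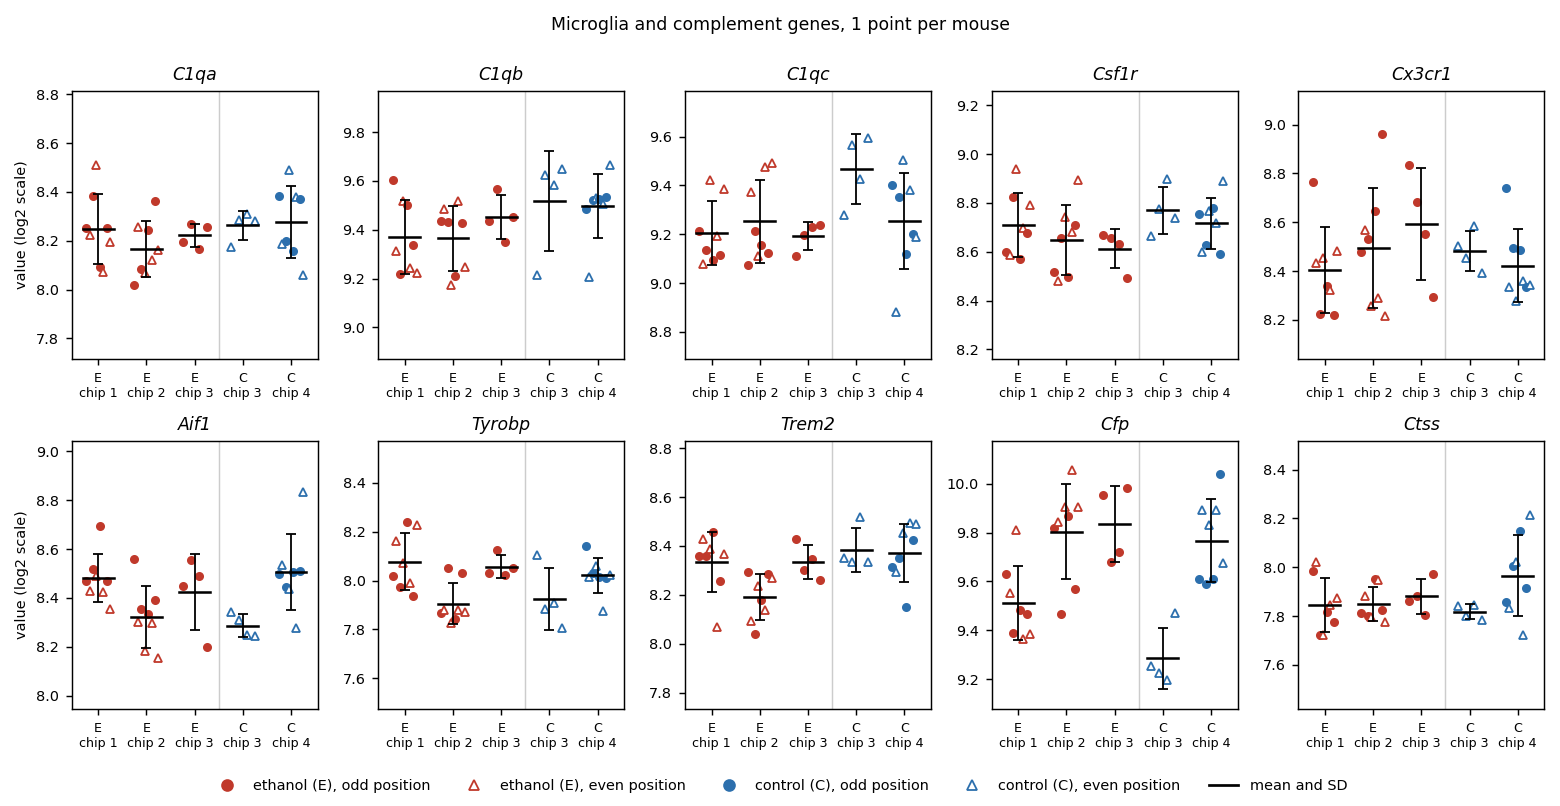
Values of the 10 genes on the log2 scale, 1 point per mouse, by group and chip, each panel spanning the same height, with filled circles for odd and open triangles for even positions and black lines for the mean and SD. The C1qb means of the ethanol-treated mice (E), 9.37 to 9.45, lie below those of the controls (C), 9.50 and 9.52. Cfp is lowest in the 4 controls of chip 3, between 9.19 and 9.47.

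Among the C1q chains, C1qb ranged from 9.17 to 9.60 in ethanol-treated mice (median 9.43) and from 9.21 to 9.67 in controls (median 9.53). The groups overlapped almost fully, yet 18 of 20 ethanol-treated mice lay below the median of the controls. That count was 17 for C1qa, 16 for Csf1r and 15 for C1qc, not called over all arrays, and 8 to 13 for the remaining members. It was not made for all genes. The C1qb means were 9.38 ± 0.13 (SD, n = 20) against 9.50 ± 0.15 (SD, n = 12), which differed by -0.12 (SE 0.05, limma adjusted p = 0.0834). The call at an FDR of 10% did not hold without control C66 (adjusted p = 0.156 by limma), when arrays were scaled by their medians (difference -0.06, adjusted p = 0.571 by limma) or with chip as a fixed block (difference -0.07, adjusted p = 0.751 by limma). Before normalization the order was the other way, with a median signal of 721 in ethanol-treated mice and 655 in controls, on arrays whose overall median signal was 166 to 203 and 146 to 187, respectively.

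C1qa and C1qc, the other chains of the same hexamer, pointed the same way but did not pass. C1qa ranged from 8.02 to 8.51 (median 8.21) in ethanol-treated mice and from 8.06 to 8.49 (median 8.28) in controls, a difference of -0.06 (95% confidence interval -0.15 to 0.03, adjusted p = 0.331 by limma). C1qc ranged from 9.07 to 9.49 (median 9.20) and from 8.88 to 9.59 (median 9.37), a difference of -0.10 (95% confidence interval -0.22 to 0.01, adjusted p = 0.204 by limma). All 3 chains were lower in ethanol-treated mice under quantile normalization and under median scaling. In bulk tissue, fewer cells of a type and less RNA per cell cannot be told apart.

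Of the microglial receptors, Trem2 came closest to a call. It ranged from 8.04 to 8.46 (median 8.29) in ethanol-treated mice and from 8.15 to 8.52 (median 8.35) in controls, a difference of -0.10 (SE 0.04, limma adjusted p = 0.105). The ranges shared most of their span. Its adaptor Tyrobp ranged from 7.83 to 8.24 (median 8.02) and from 7.81 to 8.14 (median 8.02), a difference of 0.02 (95% confidence interval -0.07 to 0.10, adjusted p = 0.836 by limma). The receptor and its adaptor thus gave differences of opposite sign, and neither passed.

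Csf1r, the receptor for the survival factors CSF1 and interleukin 34, ranged from 8.48 to 8.94 (median 8.66) in ethanol-treated mice and from 8.59 to 8.90 (median 8.75) in controls, a difference of -0.07 (95% confidence interval -0.16 to 0.02, adjusted p = 0.285 by limma). Its other probe was detected on 20 arrays only, 15 of ethanol-treated mice and 5 of controls, and stood outside the test. That dim probe averaged 7.78 ± 0.10 (SD, n = 20) in the ethanol group against 7.70 ± 0.21 (SD, n = 12), so over all arrays the probes of Csf1r disagreed in sign. On chip 3, where it was detected in all 4 controls, it lay between 7.59 and 7.78 in ethanol-treated mice and between 7.81 and 8.11 in controls, lower with ethanol as the tested probe was. Cx3cr1 ranged from 8.22 to 8.96 (median 8.47) and from 8.28 to 8.74 (median 8.42), a difference of 0.04 (95% confidence interval -0.09 to 0.17, adjusted p = 0.747 by limma). Its 3 highest values and its 4 lowest values were all in ethanol-treated mice.

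Aif1, which encodes the calcium-binding microglial marker IBA1, ranged from 8.15 to 8.70 (median 8.43) in ethanol-treated mice and from 8.25 to 8.83 (median 8.44) in controls, a difference of -0.03 (95% confidence interval -0.13 to 0.08, adjusted p = 0.776 by limma) that became 0.01 without control C66. Its second tested probe gave -0.08 (adjusted p = 0.255 by limma), and its remaining probe was detected on 0 of 32 arrays. Ctss, the lysosomal protease cathepsin S, ranged from 7.72 to 8.02 (median 7.84) and from 7.72 to 8.21 (median 7.85), a difference of -0.06 (95% confidence interval -0.15 to 0.02, adjusted p = 0.319 by limma). The groups overlapped for both genes, with 3 controls above every ethanol-treated mouse for Ctss and 1, C66, for Aif1.

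**Figure D2:**
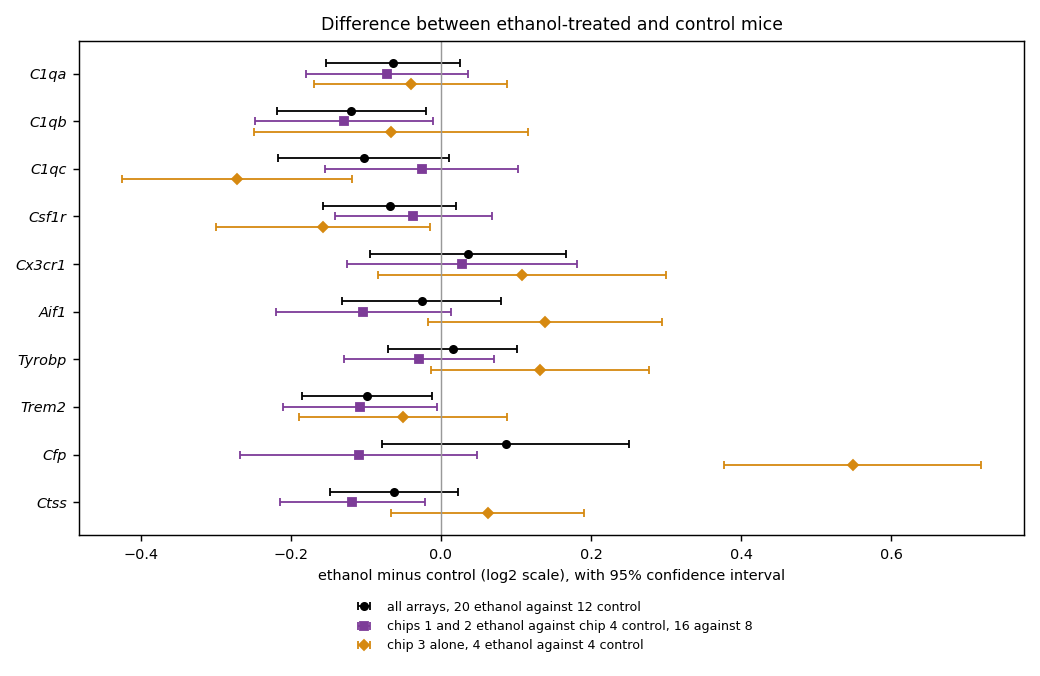
Difference between ethanol-treated and control mice on the log2 scale with 95% confidence intervals from limma, for all arrays (circles), chips 1 and 2 against chip 4 (squares) and chip 3 alone (diamonds). The chip 3 interval overlaps that of the other chips for every gene plotted except Cfp, at 0.55 on chip 3 and -0.11 between the other chips.

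Because the chips differ in treatment, the comparison was made again within and between chips. On chip 3 alone, limma called 1 of 10 genes at an FDR of 1%, where 3.44% of all genes were called, and 2 of 10 at an FDR of 10%, where 17.3% were. These were Cfp, higher, and C1qc, lower, in ethanol-treated mice. Between the ethanol-treated mice of chips 1 and 2 and the controls of chip 4, limma called 2 of 10 at an FDR of 10%, where 33.8% of all genes were called. These were C1qb (-0.13, adjusted p = 0.0962) and Ctss (-0.12, adjusted p = 0.0640), both lower in ethanol-treated mice and both not called on chip 3. The difference between the comparisons was itself tested, and by limma it passed an FDR of 1% for 1 of 10 genes, Cfp, where 2.64% of all genes passed. For C1qb it was 0.06 (95% confidence interval -0.16 to 0.29) and for Ctss 0.18 (95% confidence interval -0.01 to 0.37).

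Cfp varied most. On chip 3 its values were 9.95, 9.68, 9.72 and 9.98 in the ethanol-treated mice and 9.26, 9.22, 9.19 and 9.47 in the controls. The groups did not overlap, and their means differed by 0.55 (SE 0.08, limma adjusted p = 0.00113). An exact two-sided permutation test gave p = 0.0286, the smallest that 70 regroupings allow. Adjusted over the 10 members by Benjamini-Hochberg, the permutation p was 0.143. The share of all genes without overlap on chip 3 was not counted. On the other chips, Cfp averaged 9.51 ± 0.15 (SD, n = 8) in the ethanol-treated mice of chip 1, 9.80 ± 0.19 (SD, n = 8) in those of chip 2 and 9.77 ± 0.17 (SD, n = 8) in the controls of chip 4. The ethanol-treated mice of chips 2 and 3 and the controls of chip 4 thus had like values, while the controls of chip 3, at 9.29 ± 0.13 (SD, n = 4), stood lowest and the ethanol-treated mice of chip 1 next.

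The spread of Cfp therefore ran within treatments as well as between them. Controls of chip 3 were lower than controls of chip 4 by limma for Cfp (-0.48, adjusted p = 0.00317) and Aif1 (-0.22, adjusted p = 0.0663), 2 of 10 genes at an FDR of 10%, where 19.5% of all genes passed. The second tested Aif1 probe gave -0.11 (adjusted p = 0.407 by limma), and the controls of chip 4 include C66, the highest Aif1 array at 8.83. Ethanol-treated mice of chip 1 were compared with those of chip 2 after these values had been seen. Cfp was lower on chip 1 (-0.29, adjusted p = 0.0432 by limma) and Tyrobp higher (0.17, adjusted p = 0.0664 by limma), which makes 2 of 10 at an FDR of 10%, where 4.16% of all genes passed. Within groups the SD of Cfp was 0.25, at percentile 97.6 of the genes tested. It was 4.64 times its error over beads, against 1.52 to 2.91 times for the other members.

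Across all arrays Cfp ranged from 9.37 to 10.06 (median 9.70) in ethanol-treated mice and from 9.19 to 10.04 (median 9.61) in controls, a difference of 0.09 (95% confidence interval -0.08 to 0.25, adjusted p = 0.496 by limma). With a fixed block for chip and a covariate for odd positions, under which the difference again rests on chip 3, Cfp was 0.68 higher in ethanol-treated mice (SE 0.12, limma adjusted p = 0.00714). It was the 1 of 10 members at an FDR of 1% there, where 0.0252% of all genes passed. The chip 3 difference exceeded that between the other chips by 0.66 (95% confidence interval 0.36 to 0.96, limma adjusted p = 0.00537), or by 0.54 when arrays were scaled by their medians (limma adjusted p = 0.122).

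C1qc on chip 3 was 9.11, 9.20, 9.23 and 9.24 in ethanol-treated mice and 9.28, 9.56, 9.43 and 9.59 in controls. The groups did not overlap, though the lowest control lay close to the highest ethanol-treated mouse. The means differed by -0.27 (SE 0.07, limma adjusted p = 0.0255). The exact two-sided permutation test again gave p = 0.0286, and 0.143 when adjusted over the 10 members. The call did not hold over all arrays with a fixed block for chip (-0.27, adjusted p = 0.137 by limma), and with the covariate for odd positions added the difference was -0.16 (adjusted p = 0.702 by limma). Between the other chips it was -0.03 (adjusted p = 0.802 by limma), and the gap between these was -0.25 (95% confidence interval -0.49 to 0.00). C1qa and C1qb, the neighbouring genes, gave -0.04 and -0.07 on chip 3 and were not called, and their groups overlapped there.

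Position on the chip was examined within chips 1, 2 and 4, where it does not coincide with treatment. By limma, 0 of 10 members differed between odd and even positions at an FDR of 10%, where 20.4% of all genes did. An unadjusted p below 0.05 was reached by 2 of 10, and the share of all genes at that p was not counted. The largest differences were those of Cx3cr1, 0.16 higher at odd positions (adjusted p = 0.110 by limma), and Cfp, 0.13 lower at odd positions (adjusted p = 0.142 by limma). Of the genes called on chip 3, where the ethanol-treated mice were at odd positions, Cfp thus had the opposite sign here, while C1qc, with a difference of -0.11 (adjusted p = 0.244 by limma), had the same sign.

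On chip 3, marker genes of other cells moved with the groups too. The score of a list is the mean of its tested genes, each standardized over the 32 arrays. The 7 tested of 10 olfactory bulb genes scored 0.10 to 0.65 in ethanol-treated mice and -1.22 to -0.37 in controls, with a median difference of 0.40. The 11 tested of 13 oligodendrocyte genes scored -0.94 to -0.22 and -0.37 to 1.92, with a median difference of -0.38. The 20 tested of 28 other microglia genes scored -0.13 to 0.40 and -0.65 to -0.24. The 8 tested of 11 neuron genes scored -0.25 to 0.22 and 0.19 to 0.76, and the 10 tested of 11 astrocyte genes 0.10 to 0.50 and -0.71 to 0.14. Olfactory bulb and other microglia genes were thus higher without overlap on chip 3, where Cfp was higher too. The 2 tested ligands of microglial receptors, described below, also scored higher without overlap there, 0.24 to 1.10 and -1.09 to 0.16. The scores of the remaining lists, the oligodendrocyte, neuron and astrocyte lists among them, overlapped. Over the 32 arrays, centred within group and chip, Cfp had an r of -0.36 with olfactory bulb and -0.39 with other microglia genes. The part of these lists in the Cfp and C1qc differences was not tested. Over all arrays the scores of these lists overlapped between the groups, with olfactory bulb genes at -1.15 to 2.11 and -1.54 to 1.55. Of 16 genes of perivascular macrophages, monocytes and neutrophils, 2 were tested and 0 called, and of 7 red blood cell genes 3 were tested and 0 called, with 0 at an unadjusted p below 0.05 in either list by limma. Ccr2, H2-Aa, Plac8 and Ngp, markers of monocytes, antigen-presenting cells and neutrophils, were detected on 0 arrays. The neuronal genes Slc17a7 and Gad1 averaged 12.14 and 12.28 in ethanol-treated mice and 12.40 and 11.97 in controls. Over all arrays at an FDR of 10% by limma, 2 of 9 endothelial genes were higher and 2 lower, 2 of 11 oligodendrocyte genes lower, 2 of 10 astrocyte genes higher and 1 lower, and 1 of 8 neuron genes higher and 2 lower. Of 7 olfactory bulb genes, 1 was higher, and the median difference of that list was 0.16. Of all genes tested, 24.7% passed. With chip as a fixed block, 2 endothelial, 3 oligodendrocyte, 2 astrocyte, 2 neuron and 0 olfactory bulb genes passed, where 6.56% of all genes did.

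The co-variation of the 10 genes between mice was computed within each group. None of the 45 pairs passed a Benjamini-Hochberg adjusted p of 0.05 in ethanol-treated mice or in controls, with 90 relations adjusted together, while 7 and 4 pairs had an unadjusted permutation p below 0.05. The median r was 0.12 in the 20 ethanol-treated mice, with 28 of 45 pairs positive, and 0.07 in the 12 controls, with 25 of 45 positive. Over all pairs of genes tested, 49.9% and 50.4% were positive. The share of all these pairs with an unadjusted permutation p below 0.05 was not counted.

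**Figure D3:**
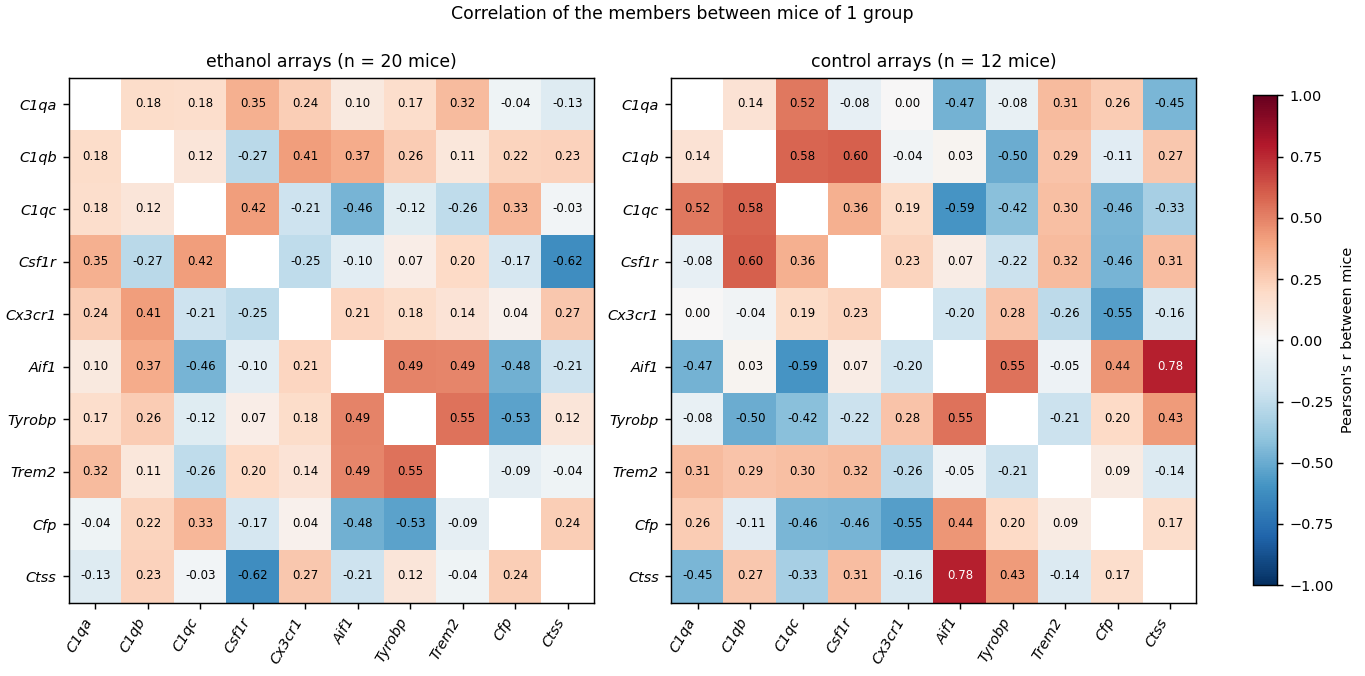
Pearson's r between the 10 genes over the 20 ethanol-treated mice (left) and the 12 controls (right), with red for positive and blue for negative values. Positive and negative pairs are mixed in both groups, from -0.62 to 0.55 on the left and from -0.59 to 0.78 on the right.

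The strongest positive pair was Aif1 and Ctss in controls (r = 0.78, permutation p = 0.00246, adjusted p = 0.161, Spearman's rho = 0.65, permutation p = 0.0256). It was 0.55 without the 2 arrays farthest from the median of Aif1 and 0.71 within chip 4 (exact p = 0.0428, n = 8), but -0.21 in ethanol-treated mice. The strongest negative pair was Csf1r and Ctss in ethanol-treated mice (r = -0.62, permutation p = 0.00357, adjusted p = 0.161, Spearman's rho = -0.61, permutation p = 0.00484). It was -0.50 without the 2 farthest arrays, -0.69 on chip 1 (exact p = 0.0619, n = 8) and -0.54 on chip 2 (exact p = 0.165, n = 8), and 0.31 in controls. Neither pair thus had the same sign in both groups, and that difference was not tested.

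None of the pairs of functional partners passed either. Trem2 and its adaptor Tyrobp gave r = 0.55 in ethanol-treated mice (permutation p = 0.0136, adjusted p = 0.379, Spearman's rho = 0.59, permutation p = 0.00716). It was 0.43 without the 2 farthest arrays, 0.61 on chip 1 (exact p = 0.0833, n = 8) but -0.28 on chip 2 (exact p = 0.486, n = 8), so chips 1 and 2 gave opposite signs. With values centred within chip it was 0.25 in ethanol-treated mice (permutation adjusted p = 0.657), and in controls, not centred, it was -0.21. The 3 pairs of C1q chains gave 0.12 to 0.18 in ethanol-treated mice. In controls C1qb with C1qc gave 0.58 (permutation p = 0.0499, adjusted p = 0.409, Spearman's rho = 0.41, permutation p = 0.185), which fell to 0.23 without the 2 farthest arrays and was 0.57 within chip 4 (exact p = 0.139, n = 8). C1qa with C1qc gave 0.52 (permutation p = 0.0803, adjusted p = 0.452, Spearman's rho = 0.59, permutation p = 0.0487), 0.44 without the 2 farthest arrays and 0.65 within chip 4 (exact p = 0.0767, n = 8).

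As a description over the 32 arrays, centred within group and chip, each gene was set against the mean of the other 9 members. C1qb followed it most (r = 0.48), then Trem2 (0.32), and Cfp least (-0.11), with Aif1 and Ctss near 0 (both 0.02). Among the genes outside the set that followed the mean of all 10 members most closely were Lsg1 and Pbx2 (both 0.66), AI593442 and Atp6v0a2 (both 0.55), Id1 and Lrig3 (both 0.54) and Dgcr6 (0.53). None of these is in a list of related genes, and the 20 other microglia genes had a median r of 0.10 with that mean, beside 0.20 for 16 lysosomal genes, 0.23 for 9 endothelial genes and 0.30 for 2 genes of perivascular macrophages and monocytes. These values come from few arrays that share chips and normalization.

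The related genes are given by role, with at most 4 named per list, those with the smallest p. Of all genes tested, 24.7% passed an FDR of 10% by limma over all arrays. Around the complement members, 4 of 19 further complement activation genes were tested, and 11, among them C1s, Cfb, Cfd and C4a, were detected on 0 arrays. By limma 0 of the 4 passed an FDR of 10%, and 1, C8b, had an unadjusted p below 0.05. C4b, whose product is cleaved in the step after C1q, stood at 8.22 ± 0.17 (SD, n = 20) against 8.16 ± 0.14 (SD, n = 12), and on chip 3 alone it was 0.25 higher in ethanol-treated mice (limma adjusted p = 0.0211). C2 differed by -0.01 and C8b by -0.07. Of 17 complement regulators and receptors, 7 were tested, with 2 higher and 1 lower at an FDR of 10% by limma. Susd4, a complement inhibitor expressed by neurons, rose by 0.29 (adjusted p = 0.00355), Vtn by 0.13 (adjusted p = 0.0796), and C1qbp, a mitochondrial protein that also binds C1q, fell by 0.14 (adjusted p = 0.0562).

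Among ligands of the microglial receptors, 2 of 3 were tested and both were higher at an FDR of 1% by limma, where 3.03% of all genes were higher. Cx3cl1, the neuronal ligand of CX3CR1, stood at 12.83 ± 0.11 (SD, n = 20) with ethanol against 12.66 ± 0.14 (SD, n = 12) without, 0.17 higher (SE 0.04, limma adjusted p = 0.00638). Apoe, a lipoprotein that TREM2 binds, stood at 12.49 ± 0.14 (SD, n = 20) against 12.22 ± 0.15 (SD, n = 12), 0.26 higher (SE 0.05, limma adjusted p = 0.000509). On chip 3 they gave 0.10 (adjusted p = 0.360 by limma) and 0.22 (adjusted p = 0.0407 by limma). With chip as a fixed block, 0 of the 2 passed an FDR of 10% by limma, where 6.56% of all genes did. The mean score of the 2 ligands was 0.84, 0.05 and 0.61 in ethanol-treated mice of chips 1, 2 and 3. In controls of chips 3 and 4 it was -0.32 and -1.03. Their receptors Cx3cr1 and Trem2 were not called in the comparison of all arrays without the block.

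Below TREM2 and TYROBP, 6 of 13 signalling genes were tested and 1, Fcgr3, an activating Fc receptor, was lower at an FDR of 10% (-0.13, adjusted p = 0.0273 by limma). Of the 20 tested other microglia genes, 2 were higher at an FDR of 10% by limma, the lysosomal membrane protein gene Laptm5 (0.12, adjusted p = 0.0273) and the phagocytic receptor gene Mertk (0.15, adjusted p = 0.0544), and 18 did not pass, with a median of 0.01. Of 8 tested microglia activation genes, 1, Cd9, was lower (-0.12, adjusted p = 0.0488 by limma), and Itgax, Lgals3, Il1b, Tnf, Ccl3, Ccl4 and Tlr4 were detected on 0 arrays. Of 16 tested cathepsins and other lysosomal genes, the group of Ctss, 1 was higher and 4 lower at an FDR of 10%. Lamp1 was 0.12 higher (adjusted p = 0.0283 by limma), while Ctsf (-0.14, adjusted p = 0.0179), Cstb (-0.10, adjusted p = 0.0376) and Ctsh (-0.14, adjusted p = 0.0537) were lower by limma. With chip as a fixed block, 0 of the 16 lysosomal and 0 of the 20 other microglia genes passed an FDR of 10% by limma. In that fit 1 of 6 signalling, 1 of 8 activation, 1 of 7 complement regulator and 0 of 4 complement activation genes passed. Of all genes, 6.56% did.

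**Figure D4:**
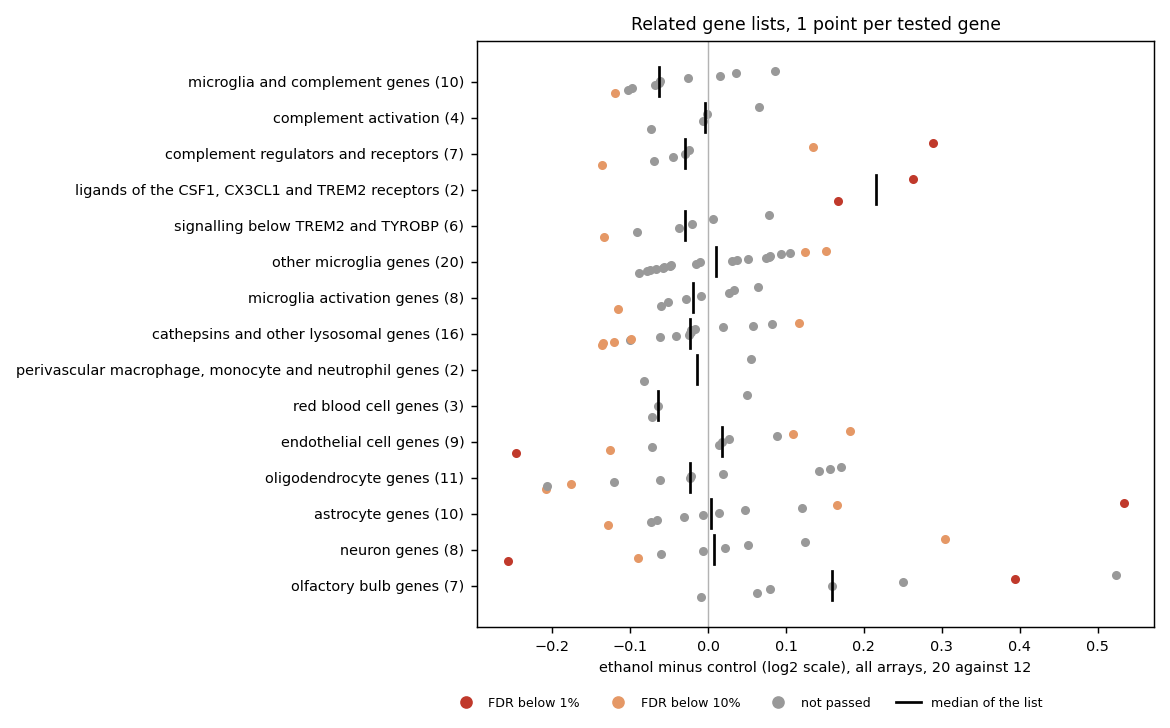
Difference between ethanol-treated and control mice on the log2 scale over all arrays, 1 point per tested gene, by list with the number tested, coloured by FDR, and a black line for the list's median. The microglia and complement genes lie between -0.12 and 0.09, and the 2 receptor ligands lie at 0.17 and 0.26.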

How the data were processed

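Frontal cortex RNA of 32 mice was measured on 1 Illumina MouseRef-8 v2.0 array each. The authors deposited bead intensities that are not normalized, with a detection p-value, and other values, the bead standard error and bead number; software before this step is not given in the sources used here. The submitters' processing notes name lumi and limma. Samples were grouped by their titles, and 0 columns lacked a sample.

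Intensities were variance-stabilized after the lumi method and quantile-normalized in R 4.3.3. A probe entered the limma 3.58.1 test if detected (p-value below 0.01) on 24 or more arrays, 75%, and the Benjamini-Hochberg adjustment ran over the 10187 probes that did. A gene is its tested probe with the highest mean. Permutation tests of pairs used 100000 resamples in Python 3.11.15 with numpy 2.4.6, pandas 2.3.3 and scipy 1.17.1, and figures used matplotlib 3.10.9. The main limma fits, the variance stabilization and the permutation test of pairs were tested on simulated data. The SD between mice of a group had a median of 0.12 over the genes tested, and member probes had 20 to 65 beads per array. Alternatives were normexp background correction with an offset of 16, log2 of the signal, median scaling, all probes, only probes detected on all arrays, the probe with the lowest p-value, chip as a fixed or random block, position, array weights, and leaving out C66 or each array of chip 3. Named genes are all members, up to 4 genes of each related list by smallest p-value, and the 8 genes most like the members, of which not all are reported here. Members and lists were chosen with earlier results of these data known. Labels do not pair arrays with RNA extraction batches, and p-values measure the spread between mice.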

Additional observations from a re-analysis of the deposited data

Results flagged for a closer look

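The difference of Cfp on chip 3 exceeded that of chips 1 and 2 from chip 4 by 0.66 on the log2 scale (adjusted p = 0.00537 by limma), a tested difference between sets of arrays. It was 0.54 with median scaling (adjusted p = 0.122 by limma).

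In 50 groups of arrays, the members on each chip, 5 held an array far from the others of its group, where chance gives about 1 in 20, or 2.5. All 5 were controls. Aif1 was highest at 8.83 in C66 on chip 4, the array with the fewest detected probes. C1qb was lowest at 9.21 in C52 on chip 3 and at 9.21 in C63 on chip 4. Cx3cr1 was highest at 8.74 in C57 on chip 4, and Trem2 at 8.52 in C55 on chip 3.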

How the results depend on the processing

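Over the 10 members and 12 alternatives, the comparison of all arrays kept direction and side of an FDR of 10% in 101 of 120 values, with 8 weaker, 2 stronger and 9 reversed, and its chip 3 counterpart in 60 of 60 over 6 alternatives. The 9 reversals were all of differences that were not called. Aif1 became 0.032 with median scaling, 0.14 with chip as a fixed block, 0.010 with chip as a random block, 0.052 with chip and position, and 0.011 without C66. Ctss became 0.062 with chip as a fixed block and 0.066 with chip and position, and Cx3cr1 became -0.0031 with position and -0.049 with chip and position. The chip 3 difference minus that of the other chips reversed with median scaling for C1qa (-0.040), C1qb (-0.054), Cx3cr1 (-0.014) and Trem2 (-0.037), and the difference of odd from even positions for Trem2 (0.0086) and Ctss (0.014). The cause was not tested.

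The count of members at an FDR of 10% over all arrays was 0 with normexp, median scaling, all probes, chip as a random block, array weights or without C66, and the count at 1% was 1 with chip as a fixed block, alone or with position. On chip 3 the count at 1% was 0 with normexp, where Cfp stood at an adjusted p of 0.0109 by limma. Leaving out 1 array of chip 3 gave 1 to 2 members at 1% and 2 to 4 at 10%, with 2 and 4 without control C52, 4 without ethanol-treated mouse 50, and Cfp at 0.50 to 0.61. The tested difference between sets of chips gave 0 members at 1% with median scaling or all probes and 0 at 10% with median scaling. With median scaling 1 pair of members passed in controls, and centred within chip and position 1 passed in ethanol-treated mice, Csf1r with Ctss (r = -0.72, adjusted p = 0.0360). Treatment coincides with chip on 3 chips and with position on the other. The correlation of arrays within a chip was 0.12 over the probes tested. No paired analysis was possible because mouse numbers are not shared between the groups.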
